A study of Mus musculus with 9 samples.

Results

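The genes described here are the nuclear genes for oxidative phosphorylation subunits, read in tissue labelled as mouse quadriceps muscle. They were taken as all protein-coding genes in the count files whose GENCODE M21 symbol starts with Nduf, Uqcr, Atp5 or Sdh, or with Cox followed by a digit from 4 to 8, and the mitochondrially encoded mt- genes were left out. The rule found 98 of 55536 genes: 36 for complex I, 4 for complex II, 8 for complex III, 18 for complex IV, 16 for complex V, 12 assembly factors that share the names (Ndufaf and Sdhaf genes), 3 related genes (Atp5s, Cox7a2l and Ndufa4l2) and 1 read-through gene that is also called Atp5o. Tissue came from C57BL/6 mice, given as 6 weeks old, after volumetric muscle loss, a surgical removal of a piece of the muscle. Bulk RNA sequencing gave 4 libraries labelled wild type (WT) and 5 labelled Il17ra-/-, a knockout of a receptor subunit for interleukin-17 cytokines. All 9 libraries share the injury, and their labels disagree on what else they share: saline and a harvest at 1 week in the characteristics, PCL (an implanted polymer) and 6 weeks in the protocol. The sources used here do not say how the Il17ra allele was made or in which cells.

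Oxidative phosphorylation is the set of reactions by which the inner mitochondrial membrane turns the electrons of NADH and succinate into ATP. Complex I takes electrons from NADH and complex II takes them from succinate. Complex III passes them to cytochrome c, complex IV passes them to oxygen, and complex V (ATP synthase) uses the resulting proton gradient. Muscle fibres and heart build part of complex IV from subunit forms that most other tissues use little, among them Cox6a2, Cox7a1 and Cox8b in place of Cox6a1, Cox7a2 and Cox8a, and brown fat uses some of these forms too. Cox4i2, best known from lung and from vascular smooth muscle and pericytes, and Ndufa4l2, which is induced by low oxygen, are restricted partners of Cox4i1 and Ndufa4.

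The sequences before the start sites of 5 members are shown because the results below turn on these genes and because they differ in the letters they hold for factors known to act on respiratory genes. Each is the 200 bases before the start that RefSeq gives (GRCm38.p6), read 5′ to 3′ on the gene's strand. Capitals mark matches, on either strand, to the letters for NRF1 (nuclear respiratory factor 1, GCGCANGCG), ETS factors such as GABP (CCGGAAG), YY1 (AAGATGGC), ERR receptors (AAGGTCA), CRE-binding factors (TGACGTCA) or MEF2, a muscle factor (searched by its consensus). The first 3 are Cox6a1, the widely used partner of Cox6a2 (chr5:115348959-115349158, minus strand), Uqcrfs1, the Rieske iron-sulfur protein of complex III (chr13:30545317-30545516, minus strand), and Ndufb7, an accessory subunit of complex I (chr8:83566558-83566757, plus strand). Cox7a1 (chr7:30183971-30184170, plus strand) and Cox8b (chr7:140900447-140900646, minus strand) are muscle forms.
Cox6a1: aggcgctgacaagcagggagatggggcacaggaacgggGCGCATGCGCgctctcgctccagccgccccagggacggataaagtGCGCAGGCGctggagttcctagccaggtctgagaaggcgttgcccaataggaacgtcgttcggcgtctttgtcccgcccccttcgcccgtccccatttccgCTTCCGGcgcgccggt
Uqcrfs1: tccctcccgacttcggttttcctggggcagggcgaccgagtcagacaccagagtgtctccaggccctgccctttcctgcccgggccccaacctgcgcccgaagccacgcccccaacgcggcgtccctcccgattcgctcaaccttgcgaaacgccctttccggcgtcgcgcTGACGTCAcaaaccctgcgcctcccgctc
Ndufb7: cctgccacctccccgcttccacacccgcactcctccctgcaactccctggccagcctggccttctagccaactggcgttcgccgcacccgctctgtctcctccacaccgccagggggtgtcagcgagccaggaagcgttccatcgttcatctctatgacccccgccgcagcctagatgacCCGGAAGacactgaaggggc
Cox7a1: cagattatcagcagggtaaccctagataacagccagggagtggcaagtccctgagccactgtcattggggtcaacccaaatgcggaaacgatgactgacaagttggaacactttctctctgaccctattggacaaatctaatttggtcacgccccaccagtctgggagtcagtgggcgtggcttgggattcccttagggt
Cox8b: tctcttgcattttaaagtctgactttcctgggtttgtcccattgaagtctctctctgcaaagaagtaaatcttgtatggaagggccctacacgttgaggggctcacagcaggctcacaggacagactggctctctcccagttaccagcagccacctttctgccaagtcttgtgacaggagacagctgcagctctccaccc

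Cox6a1 carried 3 NRF1 matches, a pair of them overlapping on opposite strands, and an ETS match, Uqcrfs1 a CRE match and Ndufb7 an ETS match. Neither Cox7a1 nor Cox8b carried any of the 6. The muscle form Cox6a2 had no matching RefSeq window and was not scanned. Over windows of 250 bases before to 50 after the start, 80 of the 98 genes matched a RefSeq window by symbol, and 24 of them (30%) held the NRF1 letters, against 7.03% of 27025 genes. The ETS letters stood in 21 (26.2%, against 9.93%), YY1 in 11 (13.8%, against 3.19%), ERR in 8 (10%, against 5.38%) and CRE in 4 (5%, against 2.03%). TATAAA stood in 8 (10%, against 15.7%), with Cox8b among them, and MEF2 in 0 (against 3.7%). The motifs can overlap, and members' windows were richer in G and C, with a median of 58.4% in subunits other than the muscle forms against 52.8% in all genes. A match is a description of letters, not a binding site.

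The libraries held 31.29 to 46.44 M (mega) counts. Il17ra itself ran against the labels: it stood at 75.9, 107, 85.4 and 119 CPM (each library's counts scaled to the same total with TMM factors) in the libraries labelled WT and at 200, 185, 181, 284 and 191 CPM in those labelled Il17ra-/-. That is a log2 fold change of 1.11 ± 0.17 (SE; edgeR quasi-likelihood test, adjusted p = 0.00208), so the groups are named below only by what their libraries are labelled, and each direction is drawn from those labels. The series text speaks of 3 animals per genotype and no label ties a library to an animal, so p-values measure the spread between these libraries, which may be technical. The library labelled WT replicate 2 stood apart on the first principal component (139.2, the others from -30.7 to 0.3, 34.3% of variance) and had the fewest genes with a count (17256). The library labelled Il17ra-/- replicate 1 stood apart on the second (89.1, the others from -33.1 to 16). Counts of members, and the results that turn on WT replicate 2, are therefore also given without it where such a fit was run. Fewer cells of a type and less RNA per cell cannot be told apart in such tissue libraries.

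By level per length (TPM, mean of 9 libraries), complex III subunits had a median of 192, complex II 155, complex V 147, complex IV 145 and complex I 109. Assembly factors lay far lower, at a median of 16.7 TPM, from Sdhaf3 at 3.6 to Sdhaf4 at 37.8. The alpha subunit of ATP synthase, Atp5a1, was the highest member at 562 TPM, followed by the beta subunit Atp5b, which holds the catalytic sites, at 543 and the complex IV subunit Cox4i1 at 480. Ndufb4 (7.81 TPM), Atp5l (3.01 TPM) and the testis-associated Cox6b2 (7.15 TPM) were the lowest tested subunits. TPM divides by the joined length of all annotated exons, 6443 bases for Atp5l, so a long annotation lowers it. Levels of members that have near-identical pseudogene copies are uncertain, since a read that fits several places is not counted, and 12 processed pseudogenes carry names that fit the same letters. Cox7b2 and Cox8c, forms known from testis, and the Atp5o read-through gene were at 0 counts in every library. These 3 did not pass the filter on low counts, and the other 95 were tested.

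With all 9 libraries, no member was called, which here means an adjusted p under 0.05 over the 16039 genes tested (edgeR's quasi-likelihood test, two-sided, Benjamini-Hochberg), while 3.06% of all genes were. Of the 95, 46 had a positive and 49 a negative log2 fold change (labelled Il17ra-/- minus WT), with a median of 0.00, against 49.7% positive and a median of 0.00 over all genes tested. At an unadjusted p under 0.05 there were 6, all higher (Cox8b, Cox6a2, Atp5a1, Uqcrfs1, Sdhaf3 and Cox7a1), against 16.4% of all genes. Groups did not overlap for 2 members, Atp5a1 and Cox6a2, against 9.18% of all genes. DESeq2 called 3 members, Atp5a1, Cox6a2 and Cox8b, all higher, among 1055 genes called in all. The edgeR fit without the filter on low counts called Cox6a2, among 619 genes called in all. As shares of the 95, all 3 counts under edgeR with the filter lie below those of all genes.

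**Figure D1:**
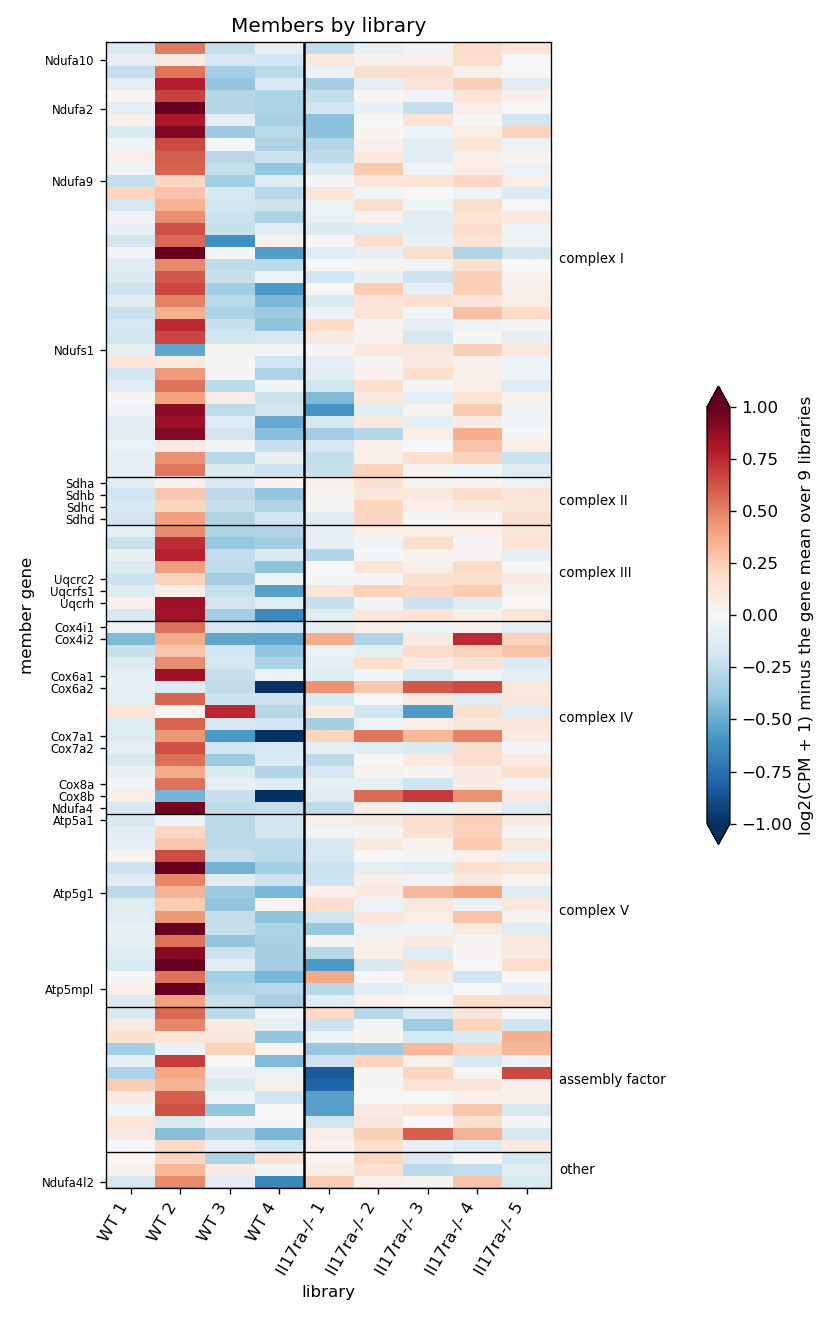
Heat map of the 95 tested members (rows, by complex) in the 9 libraries (columns), with the members named by rule labelled. Colour is log2(CPM + 1) minus the gene's mean over the 9 libraries, cut at -1 and 1. The column of WT replicate 2 is red through nearly all rows, and Cox6a2, Cox7a1 and Cox8b are bluest in WT replicate 4.

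WT replicate 2 was high for most members. It had the highest value of all 9 libraries for 74 of the 95 members (77.9%), against 26.2% of all genes tested. Its members summed to 8181 CPM, while the other libraries labelled WT summed to 5559, 5116 and 5057 CPM and those labelled Il17ra-/- to 5600, 6207, 6159, 6577 and 6060 CPM. The median member lay 0.69 above the mean of the other WT libraries on the log2 scale, against -0.05 for all genes tested. Cytosolic ribosomal protein genes (84 genes, which are short and abundant) lay 0.71 above and were highest there for 88.1%. Genes with a short summed exon length were high in this library too. Genes with a mean of at least 1 CPM were put in 4 length classes, with median summed exon lengths of 700, 1577, 2999 and 6449 bases. In these classes the median was 0.55, 0.46, 0.16 and -0.21. The members in the same classes had medians of 0.79, 0.79, 0.55 and 0.63. The part of exon length in the members' level was not tested beyond these classes.

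Without WT replicate 2, 88 of the 95 members (92.6%) were higher in the libraries labelled Il17ra-/-, with a median log2 fold change of 0.18, against 50% and a median of 0.00 over 16634 genes. Of these, 7 were called, against 3.41% of all genes in either direction: the complex I accessory subunits Ndufb7 and Ndufb9, Sdhb of complex II, Uqcrfs1 of complex III, Cox7a1 of complex IV, and Atp5a1 and Atp5g1 of complex V. At an unadjusted p under 0.05 there were 34, all higher, against 15.8% of all genes in either direction. For 26 members the 3 remaining WT libraries did not overlap the others, against 12.6% of all genes. With the library labelled Il17ra-/- replicate 1 also left out, 91 were higher and 10 were called, all higher. Over the 16321 genes of that fit, 50.1% were higher and 524 were called in either direction. When each single library was left out in turn, the count of higher members ran from 34 (without WT replicate 4) to 88. Centred on each gene's mean over the 9 libraries, the median member stood at -0.10, -0.23 and -0.27 in WT replicates 1, 3 and 4. In the Il17ra-/- libraries it stood at -0.12, 0.04, 0.03, 0.13 and 0.01, so replicate 1 there overlapped these WT libraries. Most differences were small: without WT replicate 2, 6 members exceeded 0.5 on the log2 scale (the 3 muscle forms of complex IV, Cox4i2, Sdhaf3 and Atp5g1), and Cox6b2 stood at -0.53 without a call.

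**Figure D2:**
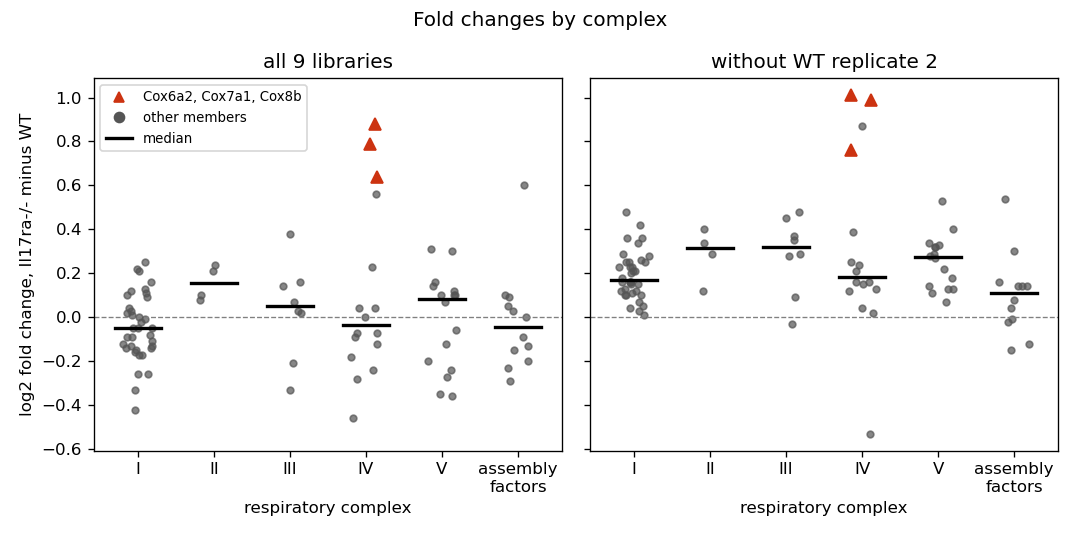
Log2 fold change of each tested member (libraries labelled Il17ra-/- minus WT) by complex, with all 9 libraries and without WT replicate 2. Points are genes, triangles the 3 muscle forms, bars the median; complex I moves from a median of -0.05 to 0.17.

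Complex I, the NADH dehydrogenase, had 13 of 36 genes higher in the libraries labelled Il17ra-/- with all libraries (median log2 fold change -0.05) and 36 of 36 without WT replicate 2 (median 0.17). Ndufs1, its largest iron-sulfur subunit, stood at 63.3, 46.4, 68.8 and 65.9 CPM in WT and at 68, 72.3, 72.5, 79.4 and 72.1 CPM in Il17ra-/- libraries (log2 fold change 0.25 ± 0.12 SE, adjusted p = 0.317, edgeR). It is an exception to the common pattern, since WT replicate 2 was its lowest library, and without that library its log2 fold change was 0.15 (adjusted p = 0.452, edgeR). Ndufa2, an accessory subunit, had 42.5, 99.6, 37.1 and 36.4 CPM in WT and 39.6, 43.2, 38.6, 47.5 and 45.6 CPM in Il17ra-/- libraries. Its log2 fold change was -0.33 ± 0.25 with all libraries and 0.15 ± 0.10 without WT replicate 2 (SE; adjusted p = 0.562 and 0.538, edgeR), so that 1 library sets its direction. The accessory subunit Ndufa9 stood at 45.4, 61.9, 42.1 and 49 CPM in WT and 53, 58.3, 58.6, 62 and 55.7 CPM in Il17ra-/- libraries. Only WT replicate 2 overlapped the other group. Ndufa10, another accessory subunit, showed the same arrangement, with 57.9, 64.9, 54.4 and 53.4 CPM in WT against 61.3 to 69.3 CPM. Ndufb9 and Ndufb7 were called without WT replicate 2, at 0.42 ± 0.10 and 0.48 ± 0.12 (SE; adjusted p = 0.0387 and 0.0463, edgeR). Among the core subunits that carry the flavin and iron-sulfur clusters or the quinone site, none was called in either fit.

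All 4 subunits of complex II, succinate dehydrogenase, were higher in the libraries labelled Il17ra-/-, with a median log2 fold change of 0.15 in all libraries and 0.31 without WT replicate 2. Sdhb, the iron-sulfur subunit (chr4:140961203-140979193, GRCm38, plus strand), stood at 69.6, 96.5, 66.4 and 60.9 CPM in WT and 82.1, 86.5, 86.2, 91.1 and 87.8 CPM in Il17ra-/- libraries. Its log2 fold change was 0.24 ± 0.13 (SE; adjusted p = 0.371) with all libraries and 0.40 ± 0.08 (adjusted p = 0.0168, edgeR) without WT replicate 2, which lay above every other library. The membrane anchor Sdhc had 64.6, 84.3, 61.5 and 58.8 CPM in WT against 71.7 to 84.1 CPM, with 0.34 ± 0.09 (adjusted p = 0.0504, edgeR) in the smaller set. The other anchor, Sdhd, had 74.6, 113, 68.7 and 74.2 CPM in WT against 78.1 to 98.1 CPM. Sdha, the flavoprotein that holds the succinate site, overlapped between groups in both fits, at 194 ± 11.5 CPM (SD, n = 4) and 205 ± 11.1 CPM (SD, n = 5).

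Complex III had 6 of 8 genes higher in the libraries labelled Il17ra-/- with all libraries (median 0.05) and 7 of 8 without WT replicate 2 (median 0.32). Uqcrfs1, whose start sequence is shown above (gene at chr13:30540308-30545362, minus strand), had 61.3, 69.9, 56.7 and 45.7 CPM in WT and 73.6, 78.7, 77.8, 80 and 68.8 CPM in Il17ra-/- libraries. Il17ra-/- replicate 5 lay just below WT replicate 2, and the other libraries were separated. The log2 fold change was 0.38 ± 0.12 (SE; adjusted p = 0.134) and, without WT replicate 2, 0.48 ± 0.11 (adjusted p = 0.0241, edgeR). The core protein Uqcrc2 had 86.2, 117, 79.4 and 96.6 CPM in WT and 98.5 to 112 CPM in Il17ra-/- libraries. Uqcrh, the hinge protein that helps cytochrome c dock, did not share this arrangement: at 114, 200, 97.3 and 103 CPM in WT and 94.4 to 111 CPM in Il17ra-/- libraries, its log2 fold change was -0.33 ± 0.18 with all libraries and -0.03 ± 0.09 without WT replicate 2 (SE; adjusted p = 0.396 and 0.912, edgeR).

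Complex V had 9 of 16 genes higher with all libraries (median 0.09) and 16 of 16 without WT replicate 2 (median 0.27). Atp5a1, the alpha subunit of the catalytic head, stood at 426, 461, 396 and 419 CPM in WT and at 502, 509, 534, 562 and 506 CPM in Il17ra-/- libraries, and the groups did not overlap. The log2 fold change was 0.30 ± 0.10 (SE; adjusted p = 0.126) and, without WT replicate 2, 0.34 ± 0.08 (adjusted p = 0.0414, edgeR). Atp5g1 (chr11:96068852-96075670, minus strand), 1 of 3 genes that encode the same mature c subunit of the membrane rotor, had 41.7, 63.9, 39.1 and 36.3 CPM in WT and 52, 53.1, 63.3, 66.5 and 46.1 CPM in Il17ra-/- libraries. It was called only without WT replicate 2, at 0.53 ± 0.12 (SE; adjusted p = 0.0322, edgeR). Of the length-scaled reads of the 3 c subunit genes, Atp5g1 held 11.3 ± 0.224% (SD, n = 4) in WT and 12.7 ± 1.28% (SD, n = 5) in Il17ra-/- libraries, Atp5g2 10.2 ± 1.94% and 9.88 ± 1.64%, and Atp5g3 78.5 ± 1.85% and 77.4 ± 2.12%. These shares overlapped between groups. They rest on the joined length of all annotated exons of each gene, 4912, 1675 and 2181 bases, and a long annotation lowers a share. By CPM the 3 genes averaged 45.2, 13.7 and 140 in WT. Atp5mpl, a small membrane subunit, had 38.5, 78.4, 30.1 and 30.4 CPM in WT and 30.4 to 37.1 CPM in Il17ra-/- libraries, and its log2 fold change of -0.36 ± 0.24 (SE) turned to 0.07 ± 0.11 without WT replicate 2 (adjusted p = 0.484 and 0.855, edgeR). Atp5o shares 47.9% of its exon bases with other genes, where reads were not assigned, so its level is uncertain.

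**Figure D3:**
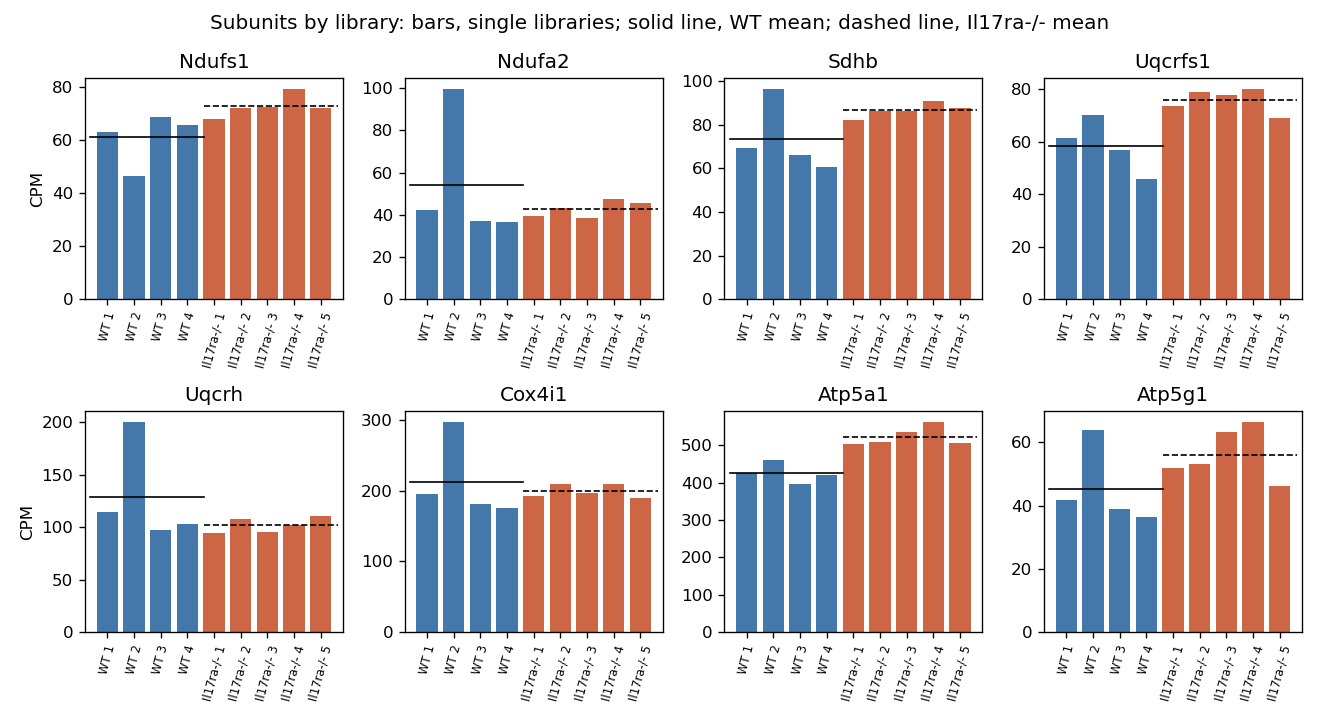
CPM of 8 subunits of complexes I to V in each library (bars; blue WT, orange Il17ra-/-), with the group means as solid and dashed lines. WT replicate 2 is the tallest bar for Ndufa2, Sdhb, Uqcrh and Cox4i1 and the shortest for Ndufs1; for Atp5a1 every Il17ra-/- bar is above every WT bar.

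Complex IV differed within itself. Of 16 tested genes, 8 were higher in the libraries labelled Il17ra-/- with all libraries (median -0.03) and 15 without WT replicate 2 (median 0.18). The catalytic core of the enzyme is mitochondrially encoded, and the most abundant nuclear subunit, Cox4i1, had 195, 297, 181 and 176 CPM in WT and 193, 210, 196, 209 and 189 CPM in Il17ra-/- libraries. Its log2 fold change was -0.09 ± 0.15 with all libraries and 0.12 ± 0.08 without WT replicate 2 (SE; adjusted p = 0.807 and 0.564, edgeR). The 3 muscle forms had the largest positive fold changes of the 95 members with all libraries.

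Cox6a2 (chr7:128205435-128206387, minus strand) stood at 21.9, 21.2, 19.3 and 6.8 CPM in WT and at 32.1, 28.3, 36.3, 37.1 and 25.1 CPM in Il17ra-/- libraries. Every library labelled Il17ra-/- lay above every WT library, and the log2 fold change was 0.88 ± 0.27 (SE; adjusted p = 0.112, edgeR; 0.99, adjusted p = 0.081, without WT replicate 2). Cox8b (chr7:140898945-140900446, minus strand) had 14.5, 9.81, 11.8 and 6.14 CPM in WT and 12.7, 21.1, 23.2, 19.3 and 14.9 CPM in Il17ra-/- libraries, which overlap through WT replicate 1 and Il17ra-/- replicate 1 (0.79 ± 0.24 SE, adjusted p = 0.111, edgeR; 0.76, adjusted p = 0.155, without WT replicate 2). Cox7a1 (chr7:30184144-30186078, plus strand) had 15.5, 23.5, 11.1 and 5.8 CPM in WT and 19.9, 24.9, 21.7, 24.4 and 18.2 CPM in Il17ra-/- libraries. Its log2 fold change was 0.64 ± 0.29 (SE; adjusted p = 0.291) and, without WT replicate 2, 1.01 ± 0.24 (adjusted p = 0.0373, edgeR). WT replicate 4 was the lowest library for all 3, and without it the value for Cox7a1 was 0.39 (adjusted p = 0.384, edgeR).

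The widely used partners did not share these values. Cox6a1 had 76.5, 148, 69.8 and 78.4 CPM in WT and 73.4 to 80.4 CPM in Il17ra-/- libraries. Cox7a2 had 52.3, 87.6, 48.6 and 49.8 CPM in WT and 50.5 to 62.9 CPM, and Cox8a 73.1, 110, 70.9 and 68.3 CPM in WT and 64.7 to 79.1 CPM. Their log2 fold changes were -0.28 ± 0.19, -0.12 ± 0.17 and -0.18 ± 0.14 with all libraries and 0.04 ± 0.08, 0.13 ± 0.10 and 0.02 ± 0.09 without WT replicate 2 (SE), with no call in either fit.

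A ratio of both forms within each library does not depend on how libraries are scaled to each other, so it was tested for 5 pairs by exact permutation of the labels, two-sided, with a smallest possible p of 0.0159. The log2 ratio of counts of Cox6a2 to Cox6a1 was -1.80, -2.80, -1.85 and -3.52 in WT and -1.23, -1.50, -1.02, -1.09 and -1.61 in Il17ra-/- libraries. The groups did not overlap (difference 1.20, exact p = 0.0159, 0.0397 after Benjamini-Hochberg adjustment over the 5 pairs). Per length, Cox6a2 made up 16.5 ± 7.18% (SD, n = 4) of the pair in WT and 29.8 ± 3.69% (SD, n = 5) in Il17ra-/- libraries. The ratio of Cox7a1 to Cox7a2 was -1.75, -1.90, -2.13 and -3.10 in WT and -1.40, -1.05, -1.22, -1.37 and -1.61 in Il17ra-/- libraries, again without overlap (difference 0.89, exact p = 0.0159, adjusted 0.0397). Without WT replicate 4 the difference was 0.59 (exact p = 0.0357). Cox7a1 held 28.1 ± 7.7% (SD, n = 4) and 41.3 ± 3.53% (SD, n = 5) of its pair. The ratio of Cox8b to Cox8a was -2.34, -3.49, -2.58 and -3.47 in WT and -2.46, -1.74, -1.48, -2.04 and -2.28 in Il17ra-/- libraries, with WT replicate 1 among the other group (difference 0.97, exact p = 0.0317, adjusted 0.0397). That call was lost when any of 7 single libraries was left out (exact p = 0.0571 or 0.0714), all but WT replicate 1 and Il17ra-/- replicate 1. Its share was 18.6 ± 6.2% (SD, n = 4) and 30.3 ± 5.81% (SD, n = 5). In every library the widely used form was the more abundant of these 3 pairs per length.

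The other restricted forms are not fibre proteins. Cox4i2 was a small part of its pair, 5.85 ± 0.582% (SD, n = 4) in WT and 9 ± 2.3% (SD, n = 5) in Il17ra-/- libraries, and stood at 5.73, 10.9, 5.42 and 5.37 CPM and at 10.9, 6.47, 8.77, 14.4 and 9.81 CPM. Its ratio to Cox4i1 differed by 0.63 on the log2 scale (exact p = 0.0317, adjusted 0.0397), and Il17ra-/- replicate 2 lay within the WT range. This call too was lost when any of 7 single libraries was left out (exact p = 0.0571 or 0.0714), all but WT replicate 2 and Il17ra-/- replicate 2. Markers of mural cells, where Cox4i2 is known to be used, were higher in the same libraries: 5 of 6 were called higher, and they summed to 998 to 1278 CPM in WT and 1676 to 2347 CPM in Il17ra-/- libraries. Their part in the Cox4i2 ratio was not tested. Ndufa4l2 to Ndufa4 differed by 0.36 with overlapping groups (exact p = 0.127), at 35.9, 56.9, 37.5 and 25.6 CPM of Ndufa4l2 in WT and 36.4 to 49.7 CPM in Il17ra-/- libraries. Ndufa4 had 64.6, 140, 60.1 and 60.7 CPM in WT and 59.9 to 75.5 CPM.

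**Figure D4:**
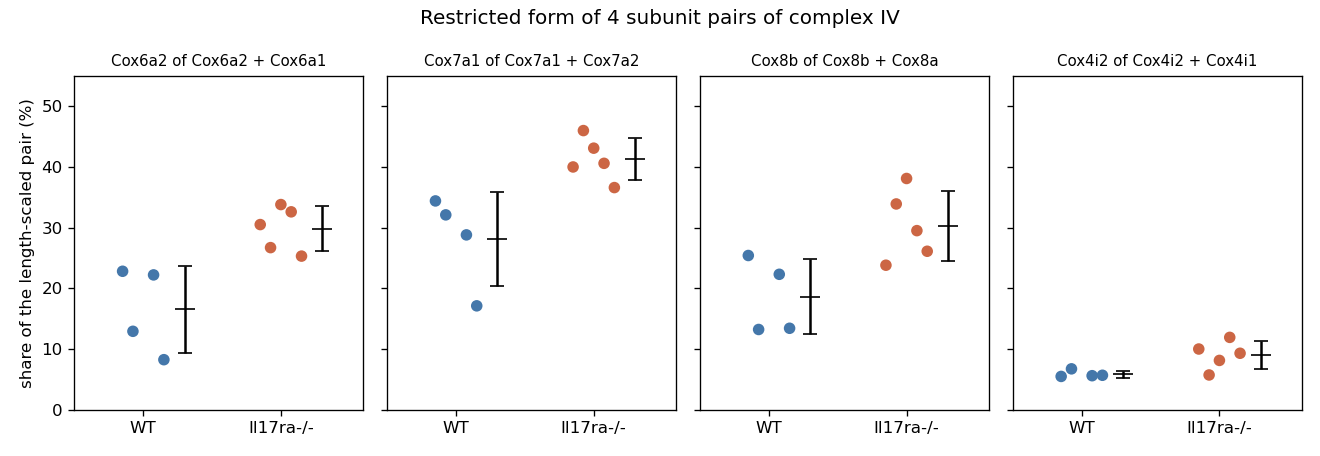
Share (%) of the restricted form in the length-scaled counts of 4 subunit pairs of complex IV, by label. Points are libraries, bars the mean ± SD; the groups are separate for Cox6a2 and Cox7a1 and overlap for Cox8b and Cox4i2.

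Muscle fibre genes differed in the same direction as the muscle forms. All 10 fibre marker genes had a positive log2 fold change (median 0.75), of which Acta1 and Actn2, thin filament actin and a Z-disc protein, were called. They summed to 980 to 2555 CPM in WT and 2755 to 3760 CPM in Il17ra-/- libraries. The mean log2(CPM + 1) of the 10 was 6.97, 6.44, 6.48 and 5.56 in WT and 7.05, 7.24, 7.47, 7.34 and 7.16 in Il17ra-/- libraries (difference 0.89, exact permutation p = 0.0159), and WT replicate 4 was the lowest, as it was for the 3 muscle forms. Relative to these 10 genes, in a calculation chosen after seeing the data, the groups differed by 0.06 for Cox6a2, -0.14 for Cox7a1 and -0.13 for Cox8b (exact permutation p = 0.714, 0.762 and 0.333). With the same fibre mean as a term in edgeR, the log2 fold changes were -0.11, -0.21 and -0.05 and no member was called. In that fit 22 of 95 members were higher, with a median of -0.17, against 48.4% and a median of -0.02 over all genes. It was run on all 9 libraries only. WT replicate 2, with a fibre mean of 6.44 and a members' sum of 8181 CPM, was among them, and its part in these signs was not tested. Calls were few in it for any gene, at 59 of the 16039 tested. The fibre mean did not overlap between the labels, so genotype label and fibre content cannot be told apart.

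**Figure D5:**
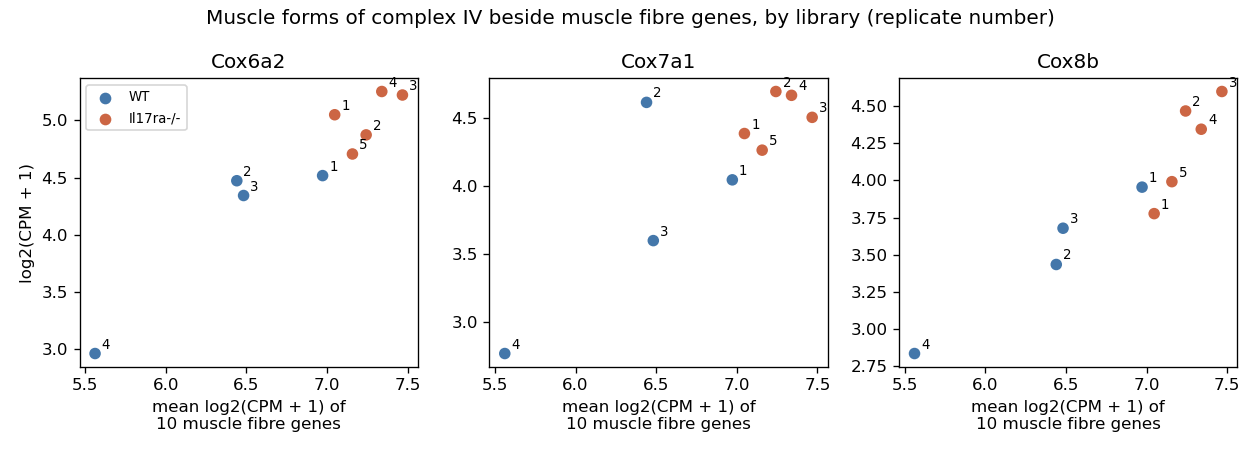
Log2(CPM + 1) of Cox6a2, Cox7a1 and Cox8b (vertical) beside the mean log2(CPM + 1) of 10 muscle fibre genes (horizontal) in each library, numbered by replicate. Libraries low in fibre genes are low in the muscle forms, with WT replicate 4 lowest on both axes; Cox7a1 in WT replicate 2 lies off this order.

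Other cell markers were read beside these values. Slow fibre genes were called higher for 7 of 8, with log2 fold changes of 1.52 to 3.07, the exception being Atp2a2 (-0.06). The 8 summed to 383 to 523 CPM in WT and 553 to 888 CPM in Il17ra-/- libraries. A large part of these sums was Atp2a2 alone, at 304 to 432 CPM and 309 to 411 CPM. The slow myosin heavy chain Myh7 rose from 10.1 ± 8.15 CPM (SD, n = 4) to 85 ± 22.1 CPM (SD, n = 5; log2 fold change 3.07 ± 0.45 SE, adjusted p = 0.00177, edgeR; 2.22, adjusted p = 0.193, with the fibre term). Fast fibre genes had 1 of 10 called (Myh2) and summed to 856 to 2014 CPM and 1723 to 2391 CPM. Of 6 adipocyte genes 1 was called higher, Adipoq (adjusted p = 0.0449, edgeR; 0.0518 without WT replicate 2), at sums of 12.6 to 29.7 CPM and 25.8 to 98 CPM, while the brown fat marker Ucp1 averaged 0.00685 CPM in WT and 0.123 CPM in Il17ra-/- libraries. The 6 fibroblast genes summed to 45360 to 49870 CPM and 38370 to 52380 CPM, with 1 called lower, far above the sum of the 10 fibre genes in every library, which compares these chosen genes only. Leukocyte genes had 1 of 5 tested called lower and summed to 18.7 to 35.3 CPM and 8.32 to 15.6 CPM. The called gene was Cd68 (17.9 ± 5.2 CPM, SD, n = 4, and 2.58 ± 1.01 CPM, SD, n = 5), while Ptprc, Adgre1 and Csf1r had positive log2 fold changes (1.20, 0.93 and 0.75, none called) at means of 1.2 CPM or less and Lyz2 had -0.15. None of 5 endothelial, 5 erythroid or 4 nerve genes was called by edgeR, and 0, 0 and 2 had an unadjusted p under 0.05. The endothelial genes summed to 33.3 to 91.7 CPM in WT and 25.4 to 62.3 CPM in Il17ra-/- libraries. Like the leukocyte genes, they lay far below the fibroblast genes in every library. Which cells the members' reads came from was not tested. The part of these cell markers in the members' values was not tested beyond the fibre term.

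Assembly factors, which build the complexes but are not part of them, had 5 of 12 higher with all libraries (median -0.05) and 8 of 12 without WT replicate 2 (median 0.11), with no call in either fit and 1 unadjusted p under 0.05 with all libraries. Sdhaf3, which helps to mature Sdhb, had the largest value, 0.60 ± 0.25 (SE; adjusted p = 0.256, edgeR), from 3.85 ± 0.895 CPM (SD, n = 4) to 5.84 ± 1.35 CPM (SD, n = 5). Of 38 tested assembly factors with other names, 0 were called (median -0.02), and 1 had an unadjusted p under 0.05. Reads in Sdhaf1 and Ndufaf2 are uncertain, since 69.6% and 65.6% of their exon bases overlap other genes and strand was not used.

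Calls with all 9 libraries did occur among genes of the same pathway that the name rule does not reach. Among 8 other subunits and carriers, Coq8a, a kinase-like protein needed to make coenzyme Q, rose from 52.3, 32.9, 37.7 and 27.7 CPM to 84.9, 91.9, 112, 117 and 89.3 CPM (log2 fold change 1.40 ± 0.18 SE, adjusted p = 5.81e-04, edgeR), and no other was called. Cyc1, the cytochrome subunit of complex III, had 70 ± 6.29 CPM (SD, n = 4) and 89.4 ± 7.34 CPM (SD, n = 5; 0.35 ± 0.11 SE, adjusted p = 0.0974, edgeR). Of 13 citric acid cycle genes 11 had a positive log2 fold change (median 0.13), among them Cs, citrate synthase, at 135 ± 5.81 CPM (SD, n = 4) and 170 ± 10.3 CPM (SD, n = 5; 0.33 ± 0.09 SE, adjusted p = 0.0775, edgeR). Of 8 genes for ATP export and buffering (Ckm is also a fibre marker), Ckmt2, the creatine kinase of muscle mitochondria, was called, from 27.6 ± 12.1 CPM (SD, n = 4) to 62.8 ± 13.8 CPM (SD, n = 5; 1.19 ± 0.26 SE, adjusted p = 0.024, edgeR). The muscle ADP/ATP carrier Slc25a4 was called only without WT replicate 2 (0.42, adjusted p = 0.0431, edgeR; 0.34, adjusted p = 0.16 with all libraries). The phosphate carrier Slc25a3 had the opposite sign, also without overlap and without a call (-0.31 ± 0.11 SE, adjusted p = 0.173, edgeR), and 3 of the 8 genes were negative. With the fibre term Coq8a and Ckmt2 had 0.84 and 0.31 and were not called (adjusted p = 0.101 and 0.779, edgeR). Of 2 tested uncoupling proteins 0 were called: Ucp3 had 1.58 ± 0.62 (SE; adjusted p = 0.215, edgeR) and an unadjusted p under 0.05, unlike Ucp2.

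Of 18 regulators of mitochondrial genes, 2 were called, both higher and both known as drivers of oxidative genes in muscle. The orphan receptor Esrrg stood at 3.89, 1.21, 2.68 and 1.41 CPM in WT and at 9.16, 6.17, 7.61, 7.94 and 4.93 CPM in Il17ra-/- libraries (1.63 ± 0.35 SE, adjusted p = 0.0211, edgeR). The coactivator Ppargc1b stood at 0.877, 0.361, 0.866 and 1.41 CPM in WT and 2.95, 2.53, 2.82, 4.8 and 2.71 CPM in Il17ra-/- libraries (1.84 ± 0.44 SE, adjusted p = 0.0378, edgeR). Neither overlapped. Ppargc1a, its better known relative, did overlap, at 2.68 ± 0.627 CPM (SD, n = 4) and 4.95 ± 2.67 CPM (SD, n = 5; 0.88 ± 0.36 SE, adjusted p = 0.238, edgeR). Esrrg belongs to the ERR receptors whose letters were searched in the start windows; the related Esrrb had 1.28 ± 0.38 (SE; adjusted p = 0.0962) and was called without WT replicate 2 (1.55, adjusted p = 0.03, edgeR), and Esrra had 0.22 ± 0.13 without a call. Among other factors whose letters were searched, Nrf1, Gabpa and Yy1 had 0.25 ± 0.15, 0.23 ± 0.17 and 0.09 ± 0.11 (SE), none called. Without WT replicate 2 and Il17ra-/- replicate 1 together, Esrrg was not called (1.32, adjusted p = 0.0538, edgeR). With the fibre term Esrrg and Ppargc1b had 0.94 and 2.31 (adjusted p = 0.604 and 0.318, edgeR).

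Mitochondrially encoded subunits could be set beside the nuclear ones only in part, since mt-Nd4l, mt-Co2, mt-Co3 and mt-Atp8 had fewer than 3 counts in every library. Of 8 tested, 7 were higher, and mt-Nd5, a proton-pumping subunit of complex I, was called at 772 ± 124 CPM (SD, n = 4) and 1151 ± 127 CPM (SD, n = 5; 0.58 ± 0.13 SE, adjusted p = 0.0285, edgeR; 0.48, adjusted p = 0.55, with the fibre term). The 13 genes together made 1.28, 1.35, 1.22 and 1.17% of counts in WT and 1.34, 1.29, 1.45, 1.79 and 1.68% in Il17ra-/- libraries. In this total WT replicate 2 lay inside the range of the others, but not in every gene. It was the highest of the 9 libraries for mt-Nd1 (2396 CPM) and mt-Nd4 (1435 CPM). For mt-Co1 (4371 CPM) and mt-Nd5 (598 CPM) it was the lowest. Against the direction of the 7 higher genes, mt-Nd3 was listed at 1.18, 1.51, 1.57 and 1.43 CPM in WT. It stood at 0 CPM in 4 Il17ra-/- libraries and 0.0236 CPM in the other (adjusted p = 7.93e-04, edgeR). A count of 3 is 0.0638 to 0.0984 CPM in these libraries, so no fold change is given, and the mt-Nd4 gene stood at 1083 ± 241 CPM (SD, n = 4) and 1108 ± 135 CPM (SD, n = 5) in the same libraries.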

How the data were processed

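RNA of quadriceps (TRIzol, then RNeasy; integrity number above 8.0) was made into TruSeq v2 libraries, which do not mark the strand, at a stated depth of 30 M reads, per the labels' protocols. STAR, in a version not stated there, was the aligner per the submitters' processing notes. Per the file headers, the authors counted read pairs over exons of GENCODE M21 (GRCm38) with featureCounts 1.6.0, and the deposited values are raw counts, with reads of several placements and reads in overlapping exons not assigned. The libraries held 31.29 to 46.44 M counts, and the lowest count behind an isoform ratio was 187. Genes were filtered with filterByExpr (minimum count 10), scaled by TMM and fitted with edgeR 4.0.16 (R 4.3.3; limma 3.58.1, DESeq2 1.42.0 as alternatives), genotype label as the only term, p adjusted over all genes. SE was derived from the log2 fold change and the F value. TPM uses the files' exon lengths. Isoform log2 ratios add 0.5 to each count and were tested by exact permutation (Python 3.11.15); per-length shares are descriptions. The procedure was tested on simulated data. RefSeq start windows were scanned for 7 motifs.

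The members, pairs, lists and tests were chosen with earlier results of these data known. Genes were named by rule: called members, the 3 subunits of each complex with the smallest p and the one with the highest level per length, the 5 isoform pairs, called genes of other lists (otherwise 2 with the smallest p) and Il17ra; some genes are not reported here. Ndufb4, Atp5l, Cox6b2, Atp5b, Sdhaf3, Atp5g2, Atp5g3, Slc25a3, Slc25a4, Cs, Ptprc, Adgre1, Csf1r, Lyz2, Esrra, Esrrb, Ppargc1a, Nrf1, Gabpa, Yy1, mt-Nd4, Ucp1 and the members called without WT replicate 2 were added after their values were seen. Alternatives were RLE, upper quartile or total scaling, no filter, a minimum count of 30, DESeq2, limma voom, a replicate block, a muscle fibre term and left-out libraries.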

Additional observations from a re-analysis of the deposited data

Results flagged for a closer look

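In groups of 4 to 10 libraries, a value was marked when its gap to the nearest other value was a larger part of the group's range than Dixon's 95% limit, which chance passes in about 1 of 20 groups. Of 190 groups (95 members, 2 labels), 37 were marked, 31 of them with WT replicate 2 as the highest. Among the named members, WT replicate 2 was marked high for Ndufa2 at 99.6 CPM (the next WT library 42.5), Sdhd at 113 CPM (next 74.6), Uqcrh at 200 CPM (next 114), Cox4i1 at 297 CPM (next 195) and Cox6a1 at 148 CPM (next 78.4). It was also marked high for Cox7a2 at 87.6 CPM (next 52.3), Cox8a at 110 CPM (next 73.1), Cox4i2 at 10.9 CPM (next 5.73) and Ndufa4 at 140 CPM (next 64.6). WT replicate 4 was marked low for Cox6a2 at 6.8 CPM (next 19.3).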

How the results depend on the processing

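Against 491 genes called with all 9 libraries, DESeq2 called 1055, the fit without a filter 619 and the fit with a muscle fibre term 59. Leaving out WT replicate 2 and Il17ra-/- replicate 1 together gave 524, and leaving out each library in turn gave 275 to 567. Members called, 0 with all libraries, were 1 without a filter, 3 with DESeq2, 10 without WT replicate 2 and Il17ra-/- replicate 1 together, and 0 to 7 over the libraries left out in turn. Without WT replicate 2 the negative log2 fold changes turned positive for Ndufa2 (0.15), Cox4i1 (0.12), Atp5mpl (0.07), Cox6a1 (0.04), Cox7a2 (0.13), Cox8a (0.02) and Ndufa4 (0.16), and without both libraries they were 0.18, 0.13, 0.11, 0.05, 0.14, 0.02 and 0.21. Over all libraries left out in turn these 7 ranged from -0.47 to 0.15, -0.16 to 0.12, -0.50 to 0.07, -0.39 to 0.04, -0.20 to 0.13, -0.24 to 0.02 and -0.35 to 0.16. With the fibre term Cox8b, Cox6a2, Cox7a1 and Ndufa4l2 turned to -0.05, -0.11, -0.21 and -0.17, and relative to the fibre genes Cox7a1 and Cox8b to -0.14 and -0.13; the cause was not tested. The isoform differences kept their sign over the libraries left out, at 0.86 to 1.44 for Cox6a2, 0.59 to 1.04 for Cox7a1, 0.80 to 1.18 for Cox8b, 0.51 to 0.80 for Cox4i2 and 0.26 to 0.47 for Ndufa4l2. Without both libraries the first 4 were 1.09, 1.01, 0.91 and 0.65, each at an exact p of 0.0571, the smallest that 3 against 4 libraries allow. Exact p-values for Cox8b and Cox4i2 passed 0.05 when most single libraries were left out, at 0.0571 or 0.0714.

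The deviations of same-numbered libraries from their group means had correlations of -0.0174, 0.00475, 0.0557 and 0.0357. Over all pairs of a WT and an Il17ra-/- library they ran from -0.0402 to 0.0557. No label says whether a shared number marks a shared animal, litter or day, and these correlations cannot decide it. With the replicate block 0 members were called, and over 4 numbered pairs the isoform differences were 1.28, 0.96, 1.04 and 0.61 (exact sign-flip p = 0.125, 0.125, 0.25 and 0.25, smallest possible 0.125).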
